A study of Homo sapiens with 16 samples.

Results

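The genes described here are 8 rows of the deposited gene counts that carry the RNA components of the spliceosome: RNU4-1, RNU4-2, RNU5A-1 and RNU5E-1 of the major spliceosome, and RNU11, RNU12, RNU4ATAC and RNU6ATAC of the minor one. They are 8 of the 28207 human gene rows of each file. They were chosen by name with earlier values of the same libraries known, namely the differences between arms of RNU6ATAC in zdna1 and of RNU12 and RNU5E-1 in zdna3. The differences between arms in zdna1 and zdna3 are therefore given as a description with no test. Tests are given for the arms of zdna2 and zdna4 and for the comparisons between numbers averaged over arms, which the choice did not use. Values between zdna3 and another number within 1 arm rest in part on the known zdna3 arm difference and are a description.

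The study sequenced total RNA of U2OS cells, an established human osteosarcoma line, in 16 libraries. The 8 groups are CC and CL, called arms here, of each of 4 numbers (zdna1, zdna2, zdna3 and zdna4), and each group has 2 replicates; the labels give zdna1_CC and its like as the genotype. What the numbers and arms stand for is not given in the sources used here, nor is a treatment, time or clone. Each group shares the U2OS background, and the title of the series speaks of MYC, of the histone chaperone FACT and of Z-DNA, in which the double helix winds to the left.

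The spliceosome removes introns from messenger RNA precursors, and its core is built from small nuclear RNAs wrapped in proteins. In the major spliceosome U1 and U2 mark the intron, and U4, U6 and U5 then join as 1 particle in which U4 holds U6 inactive until the complex is activated. U5 contacts the exon ends. The minor spliceosome handles a rare class of introns: U11 and U12 take the places of U1 and U2, U4atac and U6atac those of U4 and U6, and U5 serves both machines. U6 and U6atac are made by RNA polymerase III, and the other spliceosomal RNAs by RNA polymerase II.

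The sequences of the 2 genes of U4 are shown to make clear how close they are, and capitals mark the core of the site at which the ring of Sm proteins assembles. They are GENCODE release 29 transcripts (GRCh38), read 5′ to 3′ with T for U.
RNU4-1: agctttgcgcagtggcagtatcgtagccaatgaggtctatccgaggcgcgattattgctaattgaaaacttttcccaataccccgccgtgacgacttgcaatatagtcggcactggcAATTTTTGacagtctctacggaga
RNU4-2: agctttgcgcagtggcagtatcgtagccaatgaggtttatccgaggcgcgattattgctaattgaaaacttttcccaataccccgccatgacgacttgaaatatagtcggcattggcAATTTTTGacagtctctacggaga
RNU4-1 and RNU4-2 were identical at 137 of 141 positions (97.2%). Counted from the 5′ end of RNU4-1, the differences were C37T, G88A, C99A and C113T. Positions 38 to 87 of RNU4-1 formed the longest shared run, 50 bases, and a read that lies wholly within it matches both genes.

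The 3 counted minor members are shown because each RNA is distinct and because RNU6ATAC carries no such core. In RNU6ATAC the capitals mark the run of T at the 3′ end.
RNU12: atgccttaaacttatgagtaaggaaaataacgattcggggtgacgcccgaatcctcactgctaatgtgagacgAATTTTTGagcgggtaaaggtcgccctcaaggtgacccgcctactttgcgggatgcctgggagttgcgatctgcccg
RNU4ATAC: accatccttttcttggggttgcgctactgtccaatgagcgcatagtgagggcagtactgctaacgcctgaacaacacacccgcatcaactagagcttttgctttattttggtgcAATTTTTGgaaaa
RNU6ATAC: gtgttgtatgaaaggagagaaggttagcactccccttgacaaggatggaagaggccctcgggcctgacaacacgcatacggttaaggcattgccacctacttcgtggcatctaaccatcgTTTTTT
RNU4-2 and RNU4ATAC, which play the same part in their spliceosomes, were identical at 53.3% of aligned positions. The core was searched on the strand of the RNA as AATTTTTG or AATTTTTTG. It was present once in RNU4-1, RNU4-2, RNU12 and RNU4ATAC. Of the 997 GENCODE transcripts between 126 and 150 bases long, 55 (5.52%) held it, and of the 143 among them typed as small nuclear RNA, 51 (35.7%) did.

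In the coordinates of the files (hg19), RNU4-1 is at chr12:120730897-120731040 and RNU4-2 at chr12:120729566-120729706, both on the minus strand. RNU5A-1 is at chr15:65588389-65588505, RNU5E-1 at chr1:11968211-11968329 and RNU12 at chr22:43011251-43011399, all on the plus strand. RNU11 is at chr1:28975112-28975246 on the plus strand and RNU6ATAC at chr9:137029562-137029686 on the minus strand. RNU4ATAC, at chr2:122288456-122288585 on the plus strand, lies inside an intron of CLASP1, a gene of the opposite strand. Each row is a single exon, and RNU11 alone among the 8 lay in an exon of another gene.

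Depth was low. Libraries held 39335 to 310187 reads in human genes, so that 1 read was worth 3.22 to 25.4 CPM (counts per 1000000 human-gene reads). The zdna4 CC libraries were the shallowest, with 39335 and 40886 reads, and they also stood apart in 423 olfactory receptor genes, which summed to 1592 and 1664 CPM against 63.4 to 426 CPM in the other 14 libraries. At the rate per base of those genes, at most 0.0202 reads would fall over a stretch of 150 bases. That figure covers only reads added to a member. The share such reads take of a library's total, which enters each CPM, was not tested. Each number also has a contig of its own, left out of the totals. It took 25.7% to 27.3% of assigned reads in zdna1 CC and 0.326% to 0.403% in zdna1 CL, 60.04% to 64.3% in the 4 zdna2 libraries, 87.4% to 87.7% in zdna3 CC and 20.8% to 21.6% in zdna3 CL, and 13.8% to 17.8% in zdna4 CC and 1.28% to 1.40% in zdna4 CL; its part in the differences between arms was not tested. Of 8 mesenchymal markers, 7 reached a mean of 50 CPM, and the T-cell marker CD3E and the globins HBB and HBA1 were at 0 in each library.

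Per length, the members fell into 3 tiers. The median over 16 libraries was 19070 CPM per kilobase for RNU4-2, 17044 for RNU5E-1 and 16695 for RNU4-1. RNU12, the branch-site RNA of the minor spliceosome, had a median of 3142 CPM per kilobase and RNU5A-1 one of 2290. RNU4ATAC and RNU6ATAC were the rarest counted members, with medians of 390 and 347 CPM per kilobase. RNU11 had no read in any library. In all, the members took 0.492% to 1.33% of human-gene reads in a library.

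**Figure D1:**
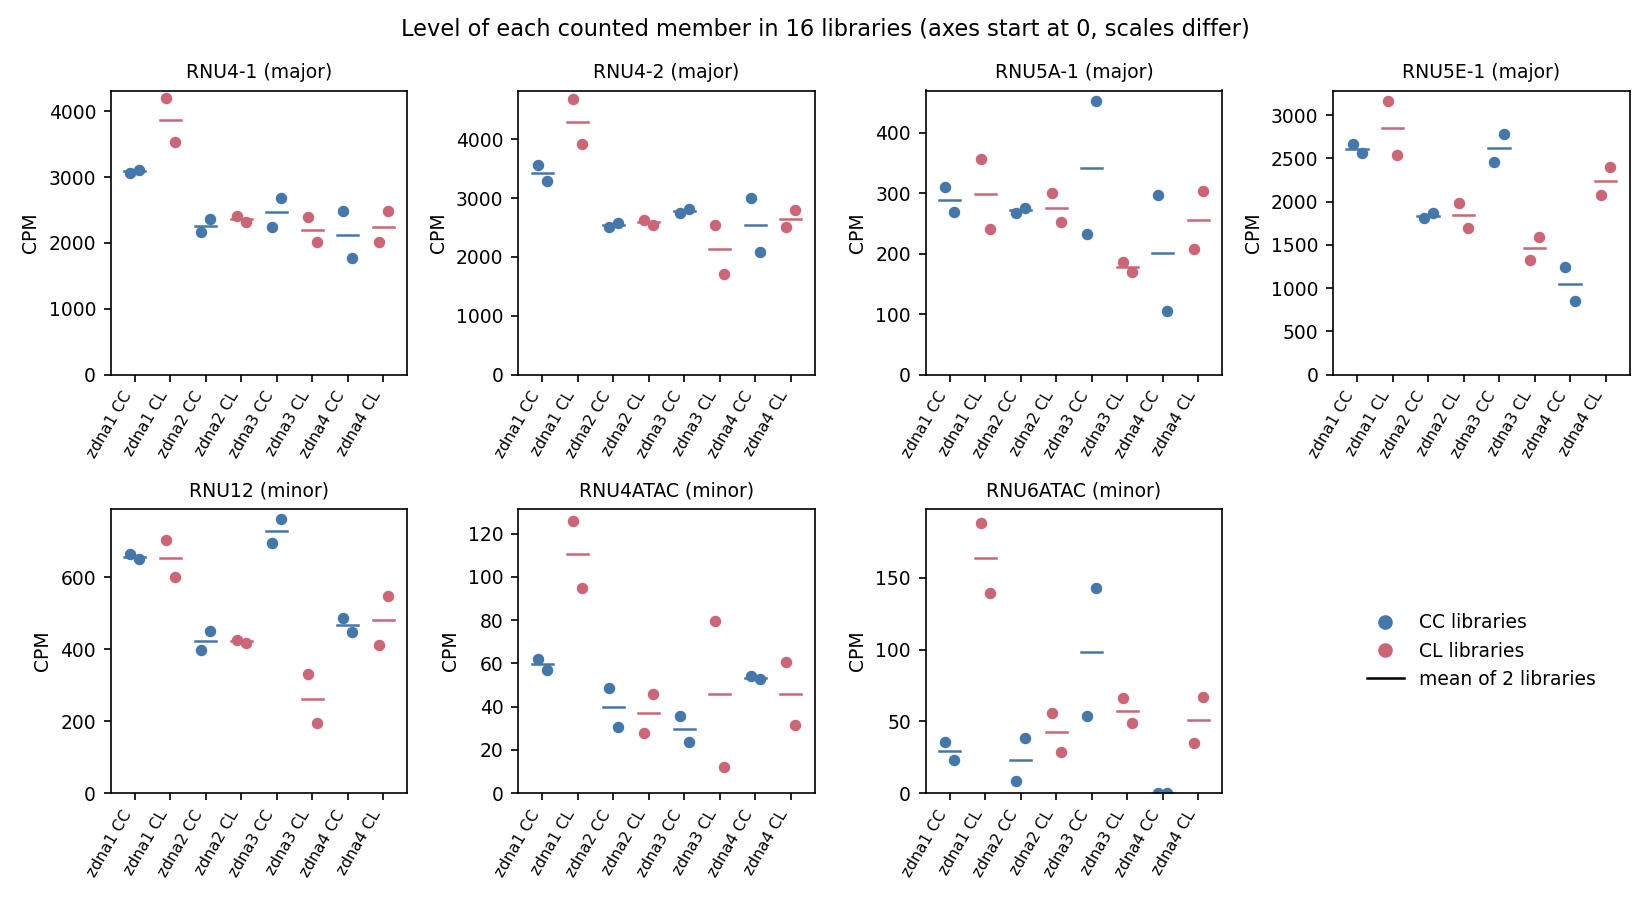
CPM (vertical axes, starting at 0 and differing in scale) of the 7 members with reads, in each of the 16 libraries by group (horizontal axes); points are libraries, lines are means of 2. RNU4-1 and RNU4-2 sit highest in zdna1 CL (means of 3870 and 4298 CPM), RNU12 lowest in zdna3 CL (263 CPM), and RNU5E-1 lowest in zdna4 CC (1043 CPM).

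RNU4-1 and RNU4-2, the genes of U4, moved nearly in parallel. RNU4-1 was at 3068 and 3108 CPM in zdna1 CC and at 4197 and 3543 CPM in zdna1 CL. Both zdna1 CL libraries lay above both zdna1 CC libraries, and those above every other library. The 12 libraries of the other numbers ran from 1770 CPM in a zdna4 CC library to 2691 CPM in a zdna3 CC library, and neighbouring groups in that stretch overlapped. RNU4-2 was at 3555 and 3285 CPM in zdna1 CC and at 4679 and 3916 CPM in zdna1 CL. It too was above the 12 other libraries there, which ran from 1715 CPM in a zdna3 CL library to 2995 CPM in a zdna4 CC library. RNU4-1 took 44.6% to 53.9% of U4 reads in a library, with a median of 47.4%. The lowest share, in a zdna4 CL library, had an exact 95% interval (Clopper-Pearson) of 42.0% to 47.2%, and the highest, in a zdna3 CL library, one of 48.2% to 59.6%. The other 14 libraries lay between 45.0% and 48.9%.

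RNU5E-1 and RNU5A-1 make variants of U5. RNU5E-1 was at 2669 and 2561 CPM in zdna1 CC and at 3170 and 2535 CPM in zdna1 CL, which overlapped. It was at 1809 and 1864 CPM in zdna2 CC and at 1982 and 1700 CPM in zdna2 CL. The 4 zdna2 libraries overlapped each other and lay below the 4 zdna1 libraries. In zdna3 it was at 2461 and 2786 CPM in CC against 1326 and 1594 CPM in CL. In zdna4 it was at 1241 and 845 CPM in CC, from 46 and 32 reads, against 2074 and 2402 CPM in CL. CL was thus below CC without overlap in zdna3 and above CC without overlap in zdna4. RNU5A-1 was about an order of magnitude rarer, with 4 to 68 reads in a library. It ran from 106 CPM in a zdna4 CC library to 452 CPM in a zdna3 CC library, with a median of 268 CPM, and all 7 pairs of neighbouring groups in its order overlapped.

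RNU12 had the highest level of the counted minor members. It was at 665 and 650 CPM in zdna1 CC and at 705 and 602 CPM in zdna1 CL. It was at 398 and 451 CPM in zdna2 CC and at 426 and 418 CPM in zdna2 CL. The arms overlapped in both numbers, and the zdna2 libraries lay below the zdna1 libraries. In zdna3 it was at 695 and 762 CPM in CC against 331 and 195 CPM in CL, the latter from 25 and 16 reads. The zdna3 groups thus held both the highest and the lowest mean of RNU12 among the 8 groups. In zdna4 it was at 486 and 449 CPM in CC and at 413 and 549 CPM in CL, which overlapped.

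RNU4ATAC and RNU6ATAC form the counterpart of the U4 and U6 pair, and both rested on few reads, 112 and 120 over the 16 libraries. RNU4ATAC was at 126 and 95.1 CPM in zdna1 CL, above the other 14 libraries, which ran from 12.2 to 79.6 CPM. RNU6ATAC was at 189 and 139 CPM in zdna1 CL, from 27 and 22 reads, against 35.5 and 22.8 CPM in zdna1 CC, from 4 reads each. A zdna3 CC library, at 143 CPM from 6 reads, lay between the 2 zdna1 CL libraries. Both zdna4 CC libraries held no RNU6ATAC read; 3 reads over that group would be 37.4 CPM. The summed RNU6ATAC counts gave 162 CPM in zdna1 CL, with an exact Poisson 95% interval of 120 to 215 CPM, and 28.4 CPM in zdna1 CC, with an interval of 12.2 to 55.9 CPM. These intervals cover counting error only. Both genes reached the mean of 50 CPM required for testing (52.5 and 58.2 CPM) only through the zdna1 CL libraries. Without them the means were 44.3 and 43.2 CPM.

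RNU11 was listed at 0 in all 16 libraries. All of its 135 bases lie in an exon of LINC01715, at chr1:28974705-28975311 on the same strand, and that gene had 5 reads in all. The files hold 800 human gene rows whose every exon base is also in an exon of another gene, and 800 of the 800 had no read in any library, against 5794 of the 27407 other rows (21.1%). The zero of RNU11 is therefore no measurement of U11. Of 26 further small nuclear RNA rows, among them copies of U1 and U6, 22 were also at 0 throughout; the cause was not tested. Of these 26, RNU5B-1 alone was abundant enough to test.

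Between the arms of zdna2 no difference was detected. None of the 7 members tested passed at an adjusted p under 0.05 in limma, and none had an unadjusted p under 0.05. Over all 4632 genes tested, 8 passed (0.173%). The best-measured members were bounded closely: on the log2 scale of CPM plus 10, the difference was 0.06 for RNU4-1 (95% interval -0.14 to 0.26), 0.02 for RNU4-2 (-0.17 to 0.22) and 0.00 for RNU5E-1 (-0.21 to 0.21). That of RNU12 was 0.00 (-0.36 to 0.35). The rare members were bounded loosely, at -0.08 for RNU4ATAC (-1.09 to 0.93) and 0.77 for RNU6ATAC (-0.31 to 1.85). DESeq2 and edgeR called none of the 7 either.

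Between the arms of zdna4, RNU5E-1 was the 1 member called. It was 2.17-fold higher in CL, a log2 difference of 1.12 (SE 0.17, adjusted p = 1.33e-05 in limma), and both CL libraries were above both CC libraries. Against this 1 of 7, 42 of all 4632 genes (0.907%) were called higher. U4 did not differ detectably, at 0.09 for RNU4-1 (95% interval -0.22 to 0.41) and 0.08 for RNU4-2 (-0.23 to 0.39), nor did RNU12, at 0.03 (-0.54 to 0.60). RNU5A-1 was at 0.47 (-0.31 to 1.26). RNU5B-1, another U5 gene and no member, was at 415 ± 138 CPM in CC and 712 ± 60.6 CPM in CL (SD, n = 2), a log2 difference of 0.80 that was not called (adjusted p = 0.104 in limma). RNU6ATAC had 26 reads in CL and none in CC, and it was not called (adjusted p = 0.139 in limma). The CL level was 1.30-fold that of 3 reads over the CC group, which is no lower bound. The summed counts gave 48.6 CPM in CL, with an exact Poisson 95% interval of 31.7 to 71.2 CPM. In CC the interval was 0 to 46.0 CPM, so the intervals overlap.

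The RNU5E-1 call rests on the shallow zdna4 CC group. Without replicate 2 of zdna4 CC the log2 difference was 0.84 and was not called (adjusted p = 0.0561 in limma), and with all 21613 genes tested at no filter it kept its size at an adjusted p of 0.116 in limma. The part played by depth and by the olfactory receptor reads in that group was not tested.

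The arms of zdna1 and zdna3, which the choice of members used, are given as values. In zdna1, 4 of 7 members had both CL libraries above both CC libraries, against 998 of 4632 genes (21.5%). Nothing is read from that count: RNU4ATAC and RNU6ATAC are among the 7 only through zdna1 CL, and the zdna1 value of RNU6ATAC helped to choose the members. Their log2 differences were 0.32 for RNU4-1, 0.32 for RNU4-2, 0.78 for RNU4ATAC and 2.16 for RNU6ATAC, while RNU5A-1 (0.02), RNU5E-1 (0.12) and RNU12 (-0.01) overlapped. In zdna3, 4 of 7 had both CL libraries below both CC libraries, against 669 of 4632 genes (14.4%). They were RNU4-2 (-0.41), RNU5A-1 (-0.83), RNU5E-1 (-0.84) and RNU12 (-1.48), while RNU4-1 (-0.16), RNU4ATAC (0.18) and RNU6ATAC (-0.56) overlapped. Nothing is read from the zdna3 count either, since the zdna3 values of RNU12 and RNU5E-1 helped to choose the members. On the deposited scale, where the median of all genes was higher by 0.72 in zdna3 CL than in CC, the zdna3 values became 0.65 for RNU4-1, 0.41 for RNU4-2, -0.04 for RNU5A-1, -0.02 for RNU5E-1 and -0.65 for RNU12, so that the direction of U4 flips there. The members above in zdna1 and those below in zdna3 had RNU4-2 alone in common.

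**Figure D2:**
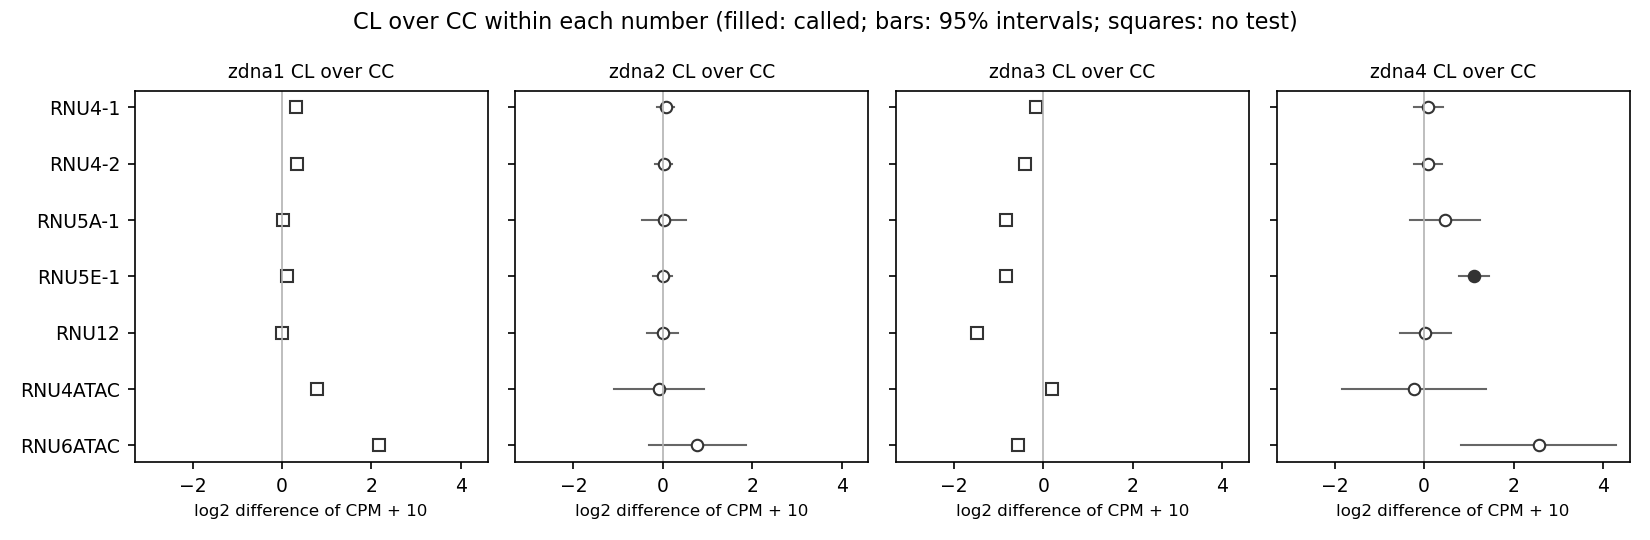
Log2 difference of CPM plus 10, CL over CC (horizontal axes), of the 7 tested members (vertical axis) in each number. Squares in zdna1 and zdna3 carry no test, bars in zdna2 and zdna4 are 95% intervals, and the filled point is the 1 called value, RNU5E-1 in zdna4 at 1.12; the zdna2 values lie between -0.08 and 0.77.

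Between numbers, averaged over CC and CL, U4, RNU5E-1 and RNU12 were highest in zdna1. These comparisons share libraries, so they are not independent of each other. Because CPM is a share of the RNA sequenced from a mass of cells, fewer cells holding an RNA and less of it per cell cannot be told apart.

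In zdna2 over zdna1, 4 of 7 members were called lower, against 79 of 4632 genes (1.71%). RNU4-1 was 1.49-fold lower, a log2 difference of -0.58 (SE 0.07, adjusted p = 1.97e-08 in limma), and RNU4-2 gave -0.58 (SE 0.07). RNU5E-1 gave -0.57 (SE 0.08, adjusted p = 1.95e-07 in limma). RNU12 gave -0.62 (SE 0.13, adjusted p = 0.00119 in limma). All 4 zdna2 libraries lay below all 4 zdna1 libraries for each of these genes. The share of all genes with such a separation was not counted, so nothing is read from it. RNU5A-1 was at -0.09 (95% interval -0.43 to 0.26), and RNU4ATAC (-0.94) and RNU6ATAC (-1.08), which entered the test only through zdna1 CL, are given as values. Within CC alone the values were -0.45, -0.42, -0.51 and -0.62 for RNU4-1, RNU4-2, RNU5E-1 and RNU12, and within CL alone -0.71, -0.73, -0.62 and -0.62. RNU12 was not called within CC alone (adjusted p = 0.273 in limma), without array weights (0.108) or with no filter (0.0934); the other 7 of these single-arm values were called.

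In zdna3 over zdna1, 4 of 7 members were called lower, against 105 of 4632 genes (2.27%): RNU4-1 at -0.57 (SE 0.09), RNU4-2 at -0.66 (SE 0.09), RNU5E-1 at -0.48 (SE 0.10) and RNU12 at -0.59 (SE 0.17, adjusted p = 0.0261 in limma). The average hid a split between arms. Within CL alone the same 4 were lower by more, at -0.81, -1.03, -0.96 and -1.32. Within CC alone none was called, at -0.33, -0.30, 0.00 and 0.14. This split restates the arm differences of zdna1 and zdna3, which the choice of members used, so it is a description. The means of RNU5E-1 and RNU12 were 2623 and 729 CPM in zdna3 CC against 2615 and 658 CPM in zdna1 CC. The averaged RNU12 value was lost in 5 of the fits that left out 1 library, those without zdna1 CC replicate 1, zdna1 CL replicate 1, zdna3 CC replicate 1, zdna3 CC replicate 2 or zdna3 CL replicate 2, where it ran from -0.41 to -0.62, and DESeq2 did not call it (adjusted p = 0.0619). With no filter neither RNU5E-1 (adjusted p = 0.0893 in limma) nor RNU12 (0.172) was called.

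In zdna4 over zdna1, 3 of 7 were called lower, against 21 of 4632 genes (0.453%). RNU5E-1 was 1.79-fold lower, at -0.84 (SE 0.10, adjusted p = 2.96e-08 in limma). RNU4-1 was at -0.67 (SE 0.09) and RNU4-2 at -0.57 (SE 0.09). RNU12 was not called, at -0.46 (95% interval -0.80 to -0.13, adjusted p = 0.266 in limma). For U4 the values were called within CL alone, at -0.78 and -0.69, but not within CC alone, at -0.56 and -0.45. For RNU5E-1 they were called in both arms, at -1.34 in CC and -0.34 in CL. RNU5B-1 was called lower too, at -0.60 (adjusted p = 0.0338 in limma), as it was in zdna3 over zdna1, at -0.49 (adjusted p = 0.0424 in limma), but not in zdna2 over zdna1, at -0.28 (adjusted p = 0.189 in limma). With all 21613 genes tested at no filter, none of the 3 was called, at adjusted p of 0.0863 to 0.130 in limma.

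Among zdna2, zdna3 and zdna4 no member was called in limma. The unadjusted p in limma was under 0.05 for 1, 1 and 2 of the 7. The share of all genes at that threshold was not counted, so nothing is read from these counts. DESeq2 called none and edgeR 1, RNU5E-1 in zdna4 over zdna3 (adjusted p = 0.0323). Over all genes, 6% were called in zdna3 over zdna2, 2.48% in zdna4 over zdna2 and 4.75% in zdna4 over zdna3. RNU4-2 was at -0.09 (95% interval -0.27 to 0.09), 0.00 (-0.18 to 0.19) and 0.09 (-0.13 to 0.31) in these, and RNU4-1 at 0.01, -0.09 and -0.10. For RNU5E-1 the average over arms again hid opposite values. In zdna4 over zdna3 it was -0.37 averaged and not called (adjusted p = 0.0663 in limma), -1.35 within CC and 0.62 within CL. RNU12 was at 0.12 averaged, -0.63 within CC and 0.88 within CL. The values within 1 arm rest in part on the zdna3 arm difference, which the choice of members used, and are a description.

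**Figure D3:**
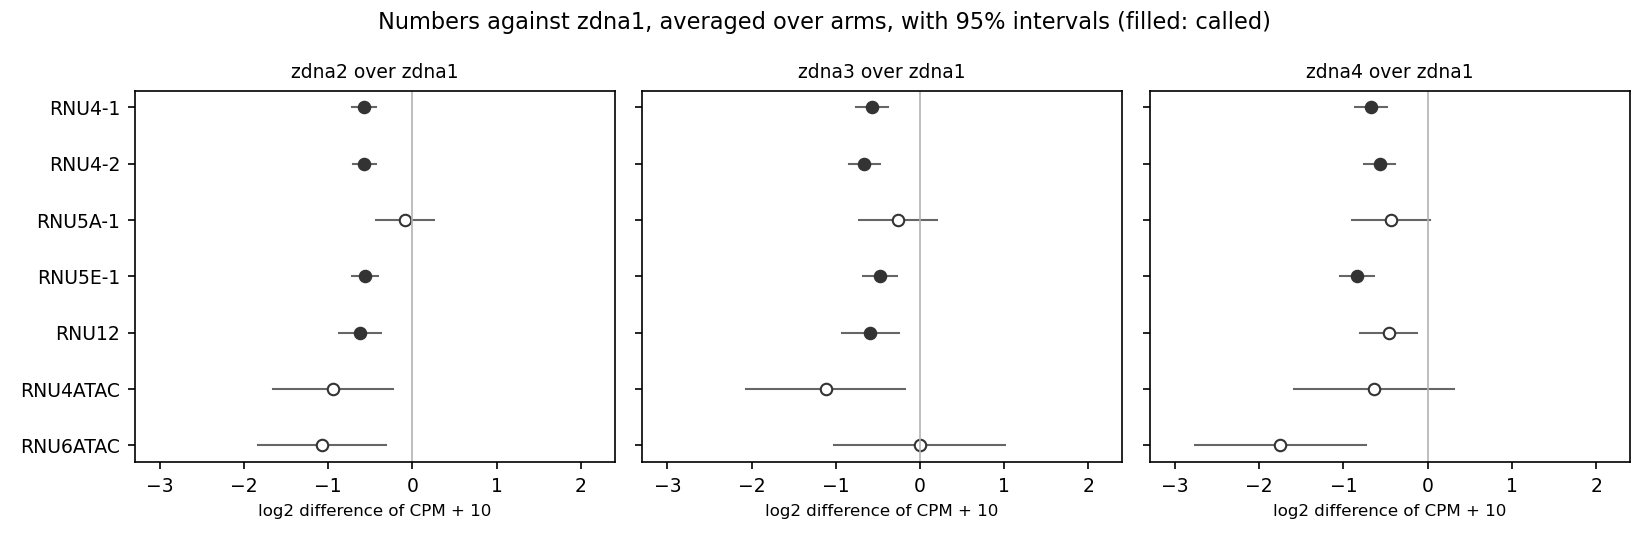
Log2 difference of CPM plus 10 against zdna1, averaged over CC and CL (horizontal axes), of the 7 tested members (vertical axis), with 95% intervals; filled points were called. The filled points lie between -0.84 and -0.48, and RNU5A-1 was not called in any of the 3 comparisons. RNU4ATAC and RNU6ATAC, which entered the test only through zdna1 CL, are shown as values.

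The scale of the deposited values bears on zdna3. Before the libraries were brought to a common total, the median of all genes was lower by 1.48 (log2) in zdna3 than in zdna1 and higher by 1.38 in zdna4 than in zdna3. On that scale RNU4-1 was at -2.22, RNU5E-1 at -2.13 and RNU12 at -2.20 in zdna3 over zdna1. The values above are relative to that shift.

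Major and minor RNAs were compared within each library, which removes the library's total. The counted minor members took 4.45% to 9.61% of member reads, with a median of 7.24%, and RNU12 supplied 69.2% to 90.0% of the minor reads. For 100 reads of the major members, zdna3 CC held 10.2 and 10.6 minor reads and zdna3 CL 7.39 and 4.66. The zdna1 groups held 7.92 to 8.22 and the zdna2 groups 6.73 to 7.34. Zdna4 CC held 7.69 and 10.4, zdna4 CL 7.49 and 8.10. The zdna3 CC libraries thus had 2 of the 3 highest ratios, and zdna3 CL replicate 2 the lowest. This restates in part the zdna3 arm differences of RNU12 and RNU5E-1, which the choice of members used, so it is a description. Since RNU11 could not be counted and RNU12 outweighs the others, this ratio is mostly that of RNU12 to U4 and U5: with RNU12 left out, the log2 of CL over CC in zdna3 was 0.13 in place of -0.79. U5 serves both machines and is counted here with the major members. With RNU5E-1 left out, the log2 of CL over CC in zdna4 was 0.02 in place of -0.22.

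Single ratios split the groups more sharply. Those of zdna1 and zdna3 rest in part on arm differences that the choice of members used, so they are a description. RNU12 stood at 13.9 and 13.9 reads for 100 U4 reads in zdna3 CC and at 6.70 and 5.23 in zdna3 CL, the highest and the lowest groups. In zdna1 it went from 10.04 and 10.2 in CC to 7.95 and 8.07 in CL. RNU5E-1 stood at 22.7 and 21.9 reads for 100 U4 reads in zdna4 CC, the lowest of the 16 libraries, and at 46.0 and 45.4 in zdna4 CL. It was highest in zdna3 CC, at 49.3 and 50.6, while zdna3 CL replicates differed, at 26.8 and 42.8. In zdna2 the ratio ran from 35.1 to 39.3. RNU12 made up 69.2% and 72.0% of the minor reads in zdna1 CL and 69.4% and 76.2% in zdna3 CL, against 87.2% and 89.1% in zdna1 CC and 88.6% and 82.1% in zdna3 CC.

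**Figure D4:**
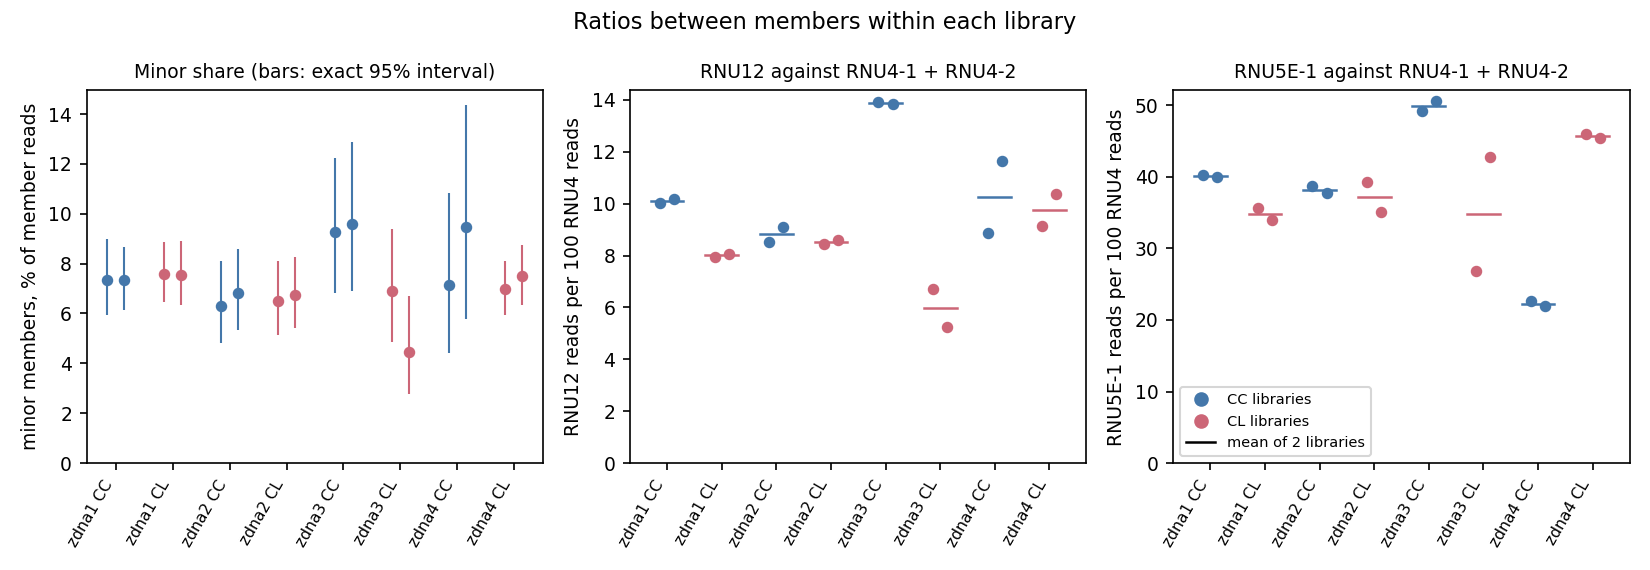
Left, minor members as a percentage of member reads in each library (bars, exact 95% binomial intervals, counting error only); middle and right, RNU12 and RNU5E-1 reads for 100 U4 reads, with group means as lines. The horizontal axes are groups, and zdna3 CC is highest for RNU12 (13.9 and 13.9) and zdna4 CC lowest for RNU5E-1 (22.7 and 21.9). The zdna3 values rest in part on arm differences that the choice of members used.

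The proteins that work with these RNAs were called in some comparisons. Lists of snRNP proteins and of factors that make and assemble snRNAs were fixed with earlier results known, and their members are given as counts, which are too small to set apart from the shares of all genes called, such as 2.27% lower in zdna3 over zdna1 and 6% in zdna3 over zdna2. Of 6 tested Sm and LSm proteins, which coat the RNAs, 1 was called in any of the 10 comparisons, LSM3 in zdna3 over zdna1 at -1.498. Of 15 tested proteins of the U4/U6.U5 particle, none was called in an arm comparison or in zdna2 or zdna4 over zdna1, and SNRNP27 was called lower in zdna3 over zdna1, at -1.75, and over zdna2, at -1.66. PRPF8, the core protein of the U5 particle, was lower in zdna4 than in zdna2, at -0.48, and than in zdna3, at -0.54. Among 14 tested factors of snRNA transcription and processing, SNAPC1, a subunit of the complex that drives snRNA promoters, was called higher in zdna2 over zdna1, at 0.74 (adjusted p = 0.000773 in limma), where 4 members were lower, and lower in zdna1 CL over CC, at -0.87. Of 16 tested assembly factors, 1 was called, MEPCE in zdna3 over zdna2 at 1.01. Of the U11/U12 proteins only ZCRB1 was abundant enough to test, and it was called nowhere.

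Other short RNAs were called in the comparisons that called members and in those that did not. Of 7 tested RNAs made by RNA polymerase III, 6 were called lower in zdna2 over zdna1 (median -0.46, against 0.00 over all genes), among them RMRP (-0.66) and RN7SL1 (-0.62), which are parts of ribosomal RNA processing and of protein targeting. In zdna3 over zdna1, 1 was called higher, RN7SL2 at 0.40, and 1 lower, RPPH1 at -0.41, and in zdna4 over zdna1 2 were lower. Of the 25 further tested rows of at most 350 bases, which include these 7, none was higher and 12 were lower in zdna2 over zdna1, with a median of -0.34. In zdna3 over zdna1 3 were higher and 4 lower, and in zdna4 over zdna1 none was higher and 4 were lower. In zdna4 CL over CC, 2 of the 25 were called higher, with a median of 0.28. Where no member was called, 10 of the 25 were higher and none lower in zdna3 over zdna2, 7 higher and 1 lower in zdna4 over zdna2, 1 higher and 6 lower in zdna4 over zdna3, and 3 higher and none lower in zdna2 CL over CC, these 3 all RNA polymerase III products. Recovery of short RNAs in library preparation can differ between libraries; its part in the members' differences was not tested.

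Likeness was measured as Pearson's r of log2 CPM plus 10 over the 16 libraries, against genes whose mean reached 200 CPM, and is a description since the points share libraries and depth. RNU4-1 and RNU4-2 were each other's nearest gene (r = 0.93), and the next were SNORD33 for RNU4-1 (r = 0.73) and RPS2 for RNU4-2 (r = 0.79). RNU5E-1 was nearest to RNU5B-1 (r = 0.84) and EIF4B (r = 0.82), RNU5A-1 to RPS27A and RPS12 (both r = 0.84), and RNU12 to RNU4-2 (r = 0.77) and RPS2 (r = 0.76). RNU4ATAC was nearest to RNU4-2 (r = 0.72) and SLC1A5 (r = 0.69), and RNU6ATAC to EXTL3 (r = 0.88) and PGD (r = 0.79). Both genes rest on few reads and were highest in zdna1 CL, whose part in these values was not tested. By ranks (Spearman's rho), RNU4ATAC and RNU4-2 gave 0.45. The partners RNU4ATAC and RNU6ATAC had an r of 0.09 with each other at these read numbers.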

How the data were processed

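RNA of U2OS cells was measured in 16 libraries, and samples were grouped by the number and arm in their titles. The submitters' processing notes name Trim Galore 0.6.6, STAR and bedtools 2.29.2 as tools, and hg19 and dm6 as genomes. Per the file headers, featureCounts 2.0.1 assigned uniquely aligned read pairs to exons and summed them by gene, with no strand option and no option for reads over 2 genes. The deposited values are a scaled signal, not whole numbers; how the scale was set is not given in the sources used here. Each was divided by the library's smallest step, which gave a whole read number, to within 0.1, in 99.99% or more of nonzero values. The fixed plan foresaw this unit.

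From these reads limma 3.58.1 was fitted to log2 of CPM plus 10 (TMM scaling, edgeR 4.0.16) for the 4632 human genes whose mean reached 50 CPM, with 8 group means, array weights per group, a trended prior and two-sided tests, Benjamini-Hochberg adjusted over these genes, called under 0.05. Fold changes on that scale understate those of low genes. CPM printed are TMM-normalised, with some exceptions. CPM of summed reads, of 1 or 3 reads, and means set against a CPM threshold use library totals alone. Shares and ratios use reads. Alternatives used edgeR, DESeq2 1.42.0, other scalings, pseudocounts, filters, weights and left-out libraries. The fit was checked on simulated data. Nothing in the labels tells if replicates came from separate cultures, so p-values may measure technical spread only. The members and lists were chosen with earlier results of these data known. By rule, all members were named, other snRNAs with at least 50 CPM, and from each list up to 3 genes, the called ones first. Figures used matplotlib 3.10.9.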

Additional observations from a re-analysis of the deposited data

Results flagged for a closer look

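RNU4-2 and RNU5E-1 changed direction between numbers. RNU4-2 had both CL libraries above both CC libraries in zdna1, with a log2 difference of 0.32, and both below in zdna3, with -0.41, a direction that flips on the deposited scale, to 0.41. RNU5E-1 had both CL libraries below both CC libraries in zdna3, with -0.84, and both above in zdna4, with 1.12. On the deposited scale its zdna3 value was -0.02. The differences between numbers were not tested, because the zdna1 and zdna3 values were known when the genes were chosen. Groups of 2 libraries are too small for a check of single outlying samples.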

How the results depend on the processing

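No member was called in zdna2 CL over CC under any alternative, and the number called in zdna2 over zdna1 stayed at 3 to 5. In zdna2 over zdna1, 9 of all 4632 genes were called within CC alone and 210 within CL alone. In zdna4 CL over CC, 2 members were called on the deposited scale and 2 without array weights, in both cases RNU5E-1 and RNU6ATAC. With no filter 0 members were called. Over all genes, 206 of 4632, 90 of 4632 and 4 of 21613 were called higher in these 3 settings. In zdna3 over zdna1 the number of members called was 7 on the deposited scale, 2 with no filter and 0 within CC alone. Over all genes it was 4421 of 4632, 75 of 21613 and 57 of 4632, so nearly all genes were called on the deposited scale. RNU4ATAC and RNU6ATAC, among the 7, entered the test only through zdna1 CL. In zdna4 over zdna1 the number of members called was 0 with no filter and 1 within CC alone, against 1 of 21613 and 14 of 4632 genes. In zdna3 over zdna2 it was 6 on the deposited scale and 1 within CL alone, against 4269 and 165 of 4632 genes. In zdna4 over zdna2 it was 1 on library totals, 1 within CC alone and 1 within CL alone, against 189, 12 and 491. In zdna4 over zdna3 it was 1 with edgeR, 6 on the deposited scale, 1 on library totals and 2 without array weights. Within CC alone it was 1 and within CL alone 3. Over all genes it was 279, 3832, 230, 478, 39 and 311 of 4632 in these settings. Counts within 1 arm that involve zdna3 are a description, since the choice of members used its arm difference.

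Signs changed on the deposited scale for RNU4-1 (-1.53 in zdna3 over zdna2, 1.505 in zdna4 over zdna3), RNU5A-1 (1.34 in zdna4 over zdna3), RNU5E-1 (-1.45 and 1.24) and RNU12 (-1.46 in zdna3 over zdna2), where the median of all genes moved by -1.36 and 1.38. No member had been called in these comparisons on the common total, so no detected direction was reversed. Signs also changed within 1 arm: RNU5E-1 was at 0.00238 in zdna3 over zdna1 within CC, 0.28 in zdna4 over zdna2 and 0.62 in zdna4 over zdna3 within CL, and RNU12 at 0.14 in zdna3 over zdna1 within CC and -0.71 in zdna3 over zdna2 within CL. The values within CC were not called, and that of RNU5E-1 (SE 0.16) is no difference in either direction.

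The log2 of CL over CC of the minor to major ratio was 0.05 in zdna1, and 0.10 per kilobase, 0.0783 without RNU4-1, 0.0863 without RNU4-2, 0.0413 without RNU5A-1, -0.00318 without RNU5E-1, 1.36 without RNU12, -0.0139 without RNU4ATAC and -0.17 without RNU6ATAC. Without RNU12 it was 0.30 in zdna2, 0.13 in zdna3 and 0.50 in zdna4, and without RNU5E-1 0.0227 in zdna4. With 1 library left out it ran from 0.0439 to 0.0522 in zdna1, from -0.05 to 0.08 in zdna2, from -1.16 to -0.49 in zdna3 and from -0.42 to 0.0191 in zdna4. The zdna1 and zdna3 ratios rest in part on arm differences that the choice of members used.

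The replicate numbers did not pair the libraries: deviations from group means correlated at -0.07 to 0.06 over 28 pairs, across 919 genes. A fit with the replicate block left the number of members called at 0 and 1 in the arms of zdna2 and zdna4, at 4, 4 and 3 in zdna2, zdna3 and zdna4 over zdna1, and at 0 in the other 3 pairs. A left-out fit takes the lone library to vary like its group did. Depth limits RNU4ATAC, RNU6ATAC and RNU5A-1 most.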
